A study of Drosophila melanogaster with 4 samples.

Results

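The strong compact peaks of Distal-less (Dll) on the X chromosome of Drosophila melanogaster are 185 regions out of the 1853 peaks of X (9.98%), in a list of 16117 peaks. They were selected on the deposited values of each peak, as peaks of X with a score of 100 or more and a width of 2000 bp or less. The same limits hold for 183 peaks of 2L (6.39%), 230 of 3L (6.75%) and 271 of 3R (6.56%), the autosomal arms set beside X here. They hold for 1110 peaks of the whole list (6.89%). X thus holds 16.7% of the strong compact peaks of the list.

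The chromatin came from white prepupae, the brief stage at which the larva stops moving and metamorphosis begins. Chromatin precipitated with an affinity-purified rabbit polyclonal serum against Dll gave 2 libraries, and sheared chromatin without precipitation gave 2 input libraries. All 4 come from the strain Y cn bw sp. Its genotype lists on X the alleles oc[R3.2] and y[1]. On chromosome 2 it lists the eye colour alleles bw[1] and cn[1], the gustatory receptor alleles Gr22d[1] and Gr22b[1], and also sp[1] and CG33964[R4.2]. On chromosome 3 it lists Rh6[1], GstD5[1], MstProx[1], LysC[1] and lab[R4.2]. The labels give neither the sex of the animals nor whether the replicates came from separate collections, and whole prepupae mix cells with and without Dll.

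Dll is a homeodomain transcription factor that is needed for the distal parts of legs and antennae. Homeodomains contact short AT-rich sites in DNA, and such factors act mostly through enhancers, which can lie far from the gene they serve. In fly males, which carry a single X, the dosage compensation complex raises transcription of X genes, while females carry a pair of X chromosomes. X carries several genes known from limb development, among them buttonhead (btd) and Sp1, zinc finger genes needed for limb growth, disconnected (disco), the Bar homeobox genes B-H1 and B-H2 of the distal leg, and bifid (bi), a T-box gene of the wing and leg. It also carries broad (br), an early gene of the ecdysone response.

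Each peak carries 1 deposited score. MACS, a peak caller, is named as its source, and its scale is not named. The score is the authors' value and serves here to choose and order peaks, so a ratio of scores is no fold of binding. The list has 0 values per library, so the depth of the libraries and the spread between replicates cannot be read from it and are unknown here. All values below describe this 1 list, and no test was run, because there are no samples to test over and because score and width chose the peaks. Intervals are exact 95% intervals. They cover counting error only and treat peaks as independent, which clustered peaks are not. Positions are those of FlyBase release 5, counted from 1. The sequence and the gene annotation of that release were not used here, so no base of a peak is printed and no gene is named near a peak.

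The 10 highest of the 185 peaks scored between 347.03 and 553.21 and were 790 to 1616 bp wide. The highest, 1535 bp wide, lay at 16452533 to 16454067 on X and had a score of 553.21. It stood over 3 weaker peaks within 25 kb, with scores of 90.08, 9.88 and 10.31, and its nearest strong compact peak was 132399 bp away. Next came a peak scoring 444.52 at 2211300 to 2212915, one scoring 438.93 at 18206398 to 18207363 and one scoring 431.61 at 16110529 to 16112035. The fifth, at 3612519 to 3613539, scored 421.68 and belonged to the largest group of strong compact peaks on X. The peak at 8314857 to 8315646 scored 417.12 and was, at 790 bp, the narrowest of the 10. A score of 409.84 marked the peak at 15705553 to 15706663, which had 1 weaker peak within 25 kb, 22081 bp away with a score of 37.71. The last of the 10 scored 383.12 (19780797 to 19781821), 373.41 (1943989 to 1944859) and 347.03 (7590396 to 7591512).

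These 10 peaks did not share one kind of surrounding. Of the 10, 6 lay in groups of 3 or more strong compact peaks in which each is within 25 kb of the next. Such groups held 57 of all 185 peaks (30.8%). The number of weaker peaks within 25 kb ran from 1 to 10 for the 10 highest and from 0 to 24 for all 185. Over all 185, the score had a median of 154.63, with quartiles of 125.09 and 211.74. The medians of the other arms were 164.2 on 2L, 142.3 on 3L and 143.83 on 3R. Their highest peaks, 939.07, 581.89 and 741.46, were all above the highest of X.

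The limits of the selection fall within a continuous range of values. The lowest scores inside were 100.95, at 8700429 to 8701113, and 101.54, at 5473069 to 5473936. Just outside were peaks that scored 99.79, at 17439107 to 17440821, and 99.46, at 3581935 to 3582363. The second of these lay 749 bp from a strong compact peak. By width, the peaks just inside covered 1985 bp, at 1169628 to 1171612, and 1976 bp, at 9587667 to 9589642. Those just outside covered 2041 bp, at 6891608 to 6893648, and 2046 bp, at 1977625 to 1979670.

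Width kept out 27 of the 212 peaks of X that scored 100 or more, which is 12.7% (interval 8.56 to 17.99%). On 2L the share was 16.1%, on 3L 16.7% and on 3R 16.1%. The 5 highest peaks left out on X scored 474.41 (7199688 to 7202330), 420.46 (19575693 to 19577809), 412.65 (19047024 to 19049314), 368.2 (17661790 to 17663851) and 328.02 (7193626 to 7196453). The first and the last of these lie close together and, at 109164 and 103102 bp, far from the nearest strong compact peak. The first would rank second by score if width set no limit.

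Strong compact peaks were about as dense on X as on the autosomal arms, while weaker peaks, those with a score under 100, were sparser. X held 8.26 strong compact peaks per Mb of its span, measured between the outermost peaks of the arm, against 7.97 on 2L, 9.44 on 3L and 9.72 on 3R. The ratio of X to the 3 arms together was 0.908, and its interval, 0.768 to 1.07, includes 1. For weaker peaks, X held 73.2 per Mb against 115.1 on 2L, 128.5 on 3L and 136.6 on 3R, a ratio of 0.575 (0.545 to 0.606). There were thus 8.87 weaker peaks for each strong compact peak on X, and 14.4 on 2L, 13.6 on 3L and 14.1 on 3R. Because the sex of the animals is not given, the share with a single X is unknown. Whether it bears on the scores and counts of X was not tested.

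As a share of peaks, strong compact peaks made up 9.98% of the peaks of X, against 6.39% on 2L, 6.75% on 3L, 6.56% on 3R and 6.89% in the whole list. Since the limits are what chose the peaks, these shares are a description. The ratio of X to the 3 arms is 1.52 (interval 1.28 to 1.79) per peak and 0.908 (0.768 to 1.07) per Mb. X thus stands above the autosomal arms per peak. Per Mb it lies among them, above 2L and below 3L and 3R. Divided by score, the ratio per Mb was 0.856 (0.671 to 1.08) for scores of 100 to 150 and 1.04 (0.715 to 1.48) for 150 to 200. It was 0.761 (0.490 to 1.15) for 200 to 300 and 1.20 (0.721 to 1.94) for 300 or more. Every one of these intervals includes 1. They also overlap each other, so no order between the classes can be read from 24 to 90 peaks of X in each.

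Along X, strong compact peaks occurred from end to end except near the centromere. The span was divided into 10 equal segments of 2.24 Mb, counted from the low-coordinate end, which on X, 2L and 3L is the telomere. Segments 1 to 10 held 24, 22, 17, 28, 19, 13, 13, 21, 27 and 1 strong compact peaks, or 18.5 ± 8.03 (SD over 10 segments). The densest was segment 4, from 6728931 to 8969791, with 12.5 per Mb. Close to it was segment 9, from 17933230 to 20174090, with 12.05 per Mb. Between them, segments 6 and 7 each had 5.80 per Mb.

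**Figure D1:**
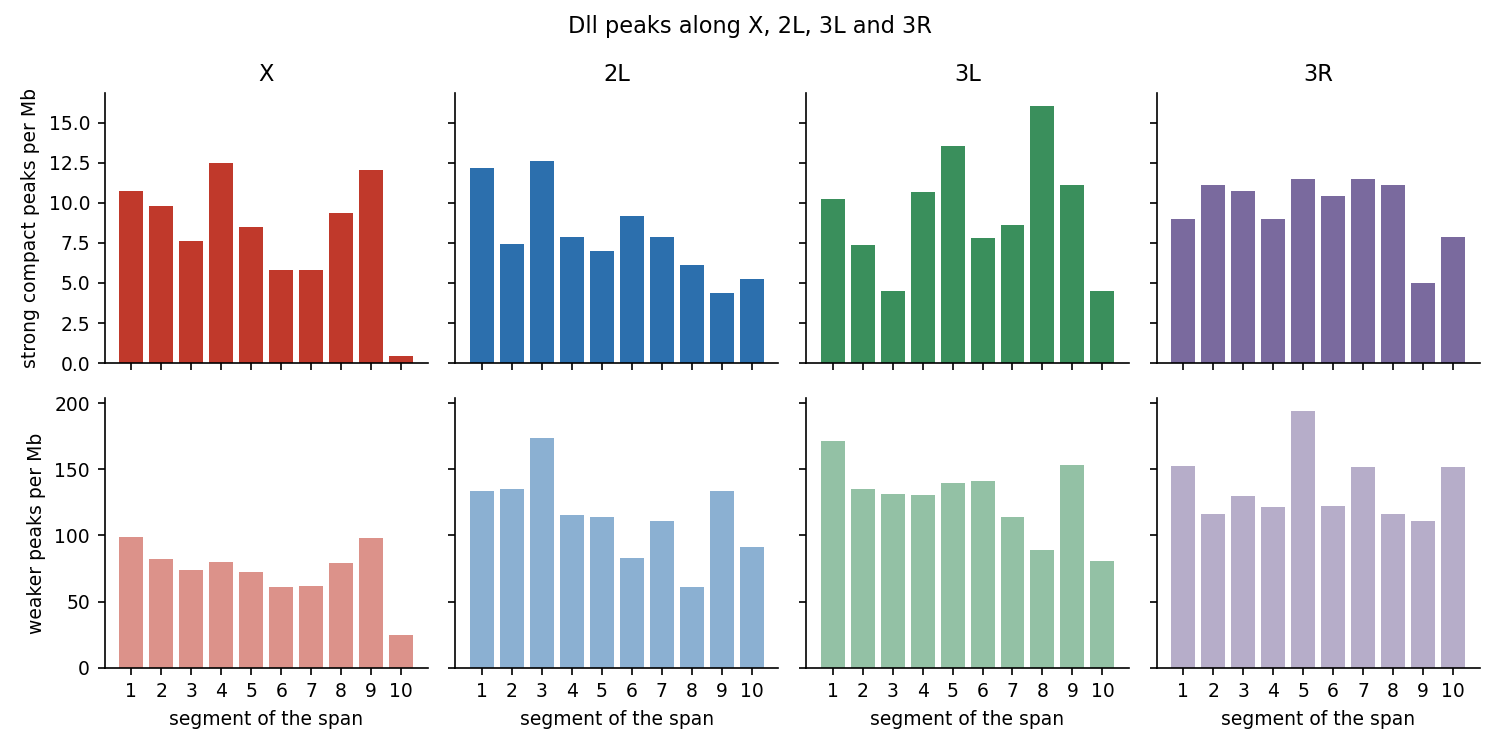
Strong compact peaks (upper row) and weaker peaks (lower row) per Mb in 10 equal segments of the span of X, 2L, 3L and 3R, numbered from the low-coordinate end. Each bar is 1 segment of the 1 list, with no error. On X both kinds dip in segments 6 and 7 and are at their lowest in segment 10, where 1 strong compact peak and 56 weaker peaks lie.

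Weaker peaks followed this outline in part, with 60.7 and 62.0 per Mb in segments 6 and 7, and 97.7 in segment 9. They were densest in segment 1, at 99.1 per Mb, and had 79.9 per Mb in segment 4. The share of peaks that are strong and compact therefore varied less than their number, between 8.55% and 13.3% in segments 1 to 9. Segment 10, from 20174090 to 22414950 on the centromere side, had 1 strong compact peak among 57 peaks, or 1.75%. Segments next to the centromere held 12 strong compact peaks on 2L, 11 on 3L and 25 on 3R, whose low-coordinate end is the centromere side. Without these segments the densities were 9.12 per Mb on X, 8.27 on 2L, 9.99 on 3L and 9.80 on 3R, and the ratio of X to the 3 arms was 0.971 (0.820 to 1.15).

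The median strong compact peak lay at 40.9% of the span of X, and the median weaker peak at 43.1%. Segments 1 to 5 held 59.5% of the strong compact peaks (interval 52.0 to 66.6%) and 55.7% of the weaker ones (53.3 to 58.1%). On 2L the same shares were 59.0% and 58.4%, on 3L 49.1% and 55.05%, and on 3R 52.8% and 52.2%. Segment 8 of 3L held 39 strong compact peaks, the most of any segment of the 4 arms, and, with 217, the second lowest number of weaker peaks of the 10 segments of 3L. On X the segment richest in strong compact peaks, segment 4, held 28 beside 179 weaker ones.

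Spacing along X was uneven, with close pairs and long empty stretches. The 184 gaps between neighbouring strong compact peaks had a median of 48360.5 bp (interval 32031 to 67139 bp) and quartiles of 11597.5 and 166271 bp. The shortest gap was 192 bp, between the peaks at 16041374 to 16042686 (score 179.93) and at 16042879 to 16043469 (143.83). Of the gaps, 26 (14.1%) were 5000 bp or shorter, and 20 were longer than 300 kb.

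The autosomal arms had medians of 65717.5 bp on 2L (51050 to 86252 bp), 50669 bp on 3L and 51442.5 bp on 3R. Because the arms differ in density, the gaps were also divided by the mean spacing of the arm, 121.1 kb on X, 125.5 kb on 2L, 105.9 kb on 3L and 102.9 kb on 3R. The median of this quotient was 0.399 on X (0.264 to 0.554), 0.524 on 2L, 0.478 on 3L and 0.4998 on 3R. Its lower quartile was 0.0957 on X, 0.164 on 2L, 0.134 on 3L and 0.138 on 3R. Both values were lowest on X, but the interval of the median of X includes the medians of all 3 arms.

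**Figure D2:**
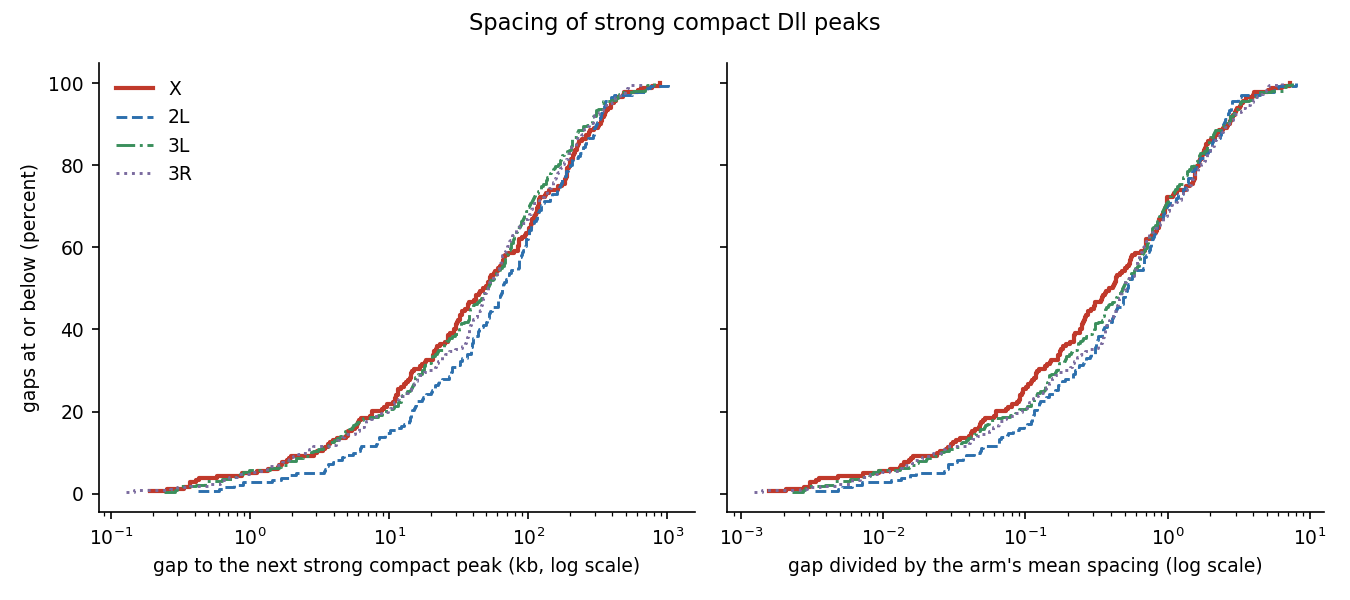
Cumulative percentage of gaps between neighbouring strong compact peaks on X (184 gaps), 2L, 3L and 3R, by the gap in kb (left) and by the gap divided by the mean spacing of the arm (right), both on log axes. The curve of 2L lies below the others for gaps under about 50 kb, and once density is divided out the curve of X is the highest of the 4 between 0.1 and 0.5.

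Another strong compact peak lay within 25 kb of 109 of the 185 on X, or 58.9% (interval 51.5 to 66.1%). The share was 44.3% on 2L (36.9 to 51.8%), 56.1% on 3L (49.4 to 62.6%) and 55.4% on 3R (49.2 to 61.4%). The median distance to the nearest other strong compact peak was 14681 bp on X (11599 to 21638 bp), against 32506 bp on 2L (22320 to 43144 bp), 17878 bp on 3L (14527 to 26980 bp) and 21314 bp on 3R (15041 to 29495 bp). X and 2L, with 185 and 183 peaks on spans of 22.4 and 23.0 Mb, thus stood furthest apart in spacing, and their intervals for this distance do not overlap. For the same distance the interval of X overlaps those of 3L and 3R. Peaks that are nearest to each other enter this distance with the same value, so its intervals are too narrow. For the median gap the intervals of X and 2L overlap.

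On X, 57 strong compact peaks formed 16 groups of 3 or more, 26 groups were pairs, and 76 peaks stood alone by the 25 kb limit. The largest group had 7 members in 72.4 kb, from 3570828 to 3643276. Its scores in order along X were 185.27, 154.63, 124.21, 421.68, 240.94, 251.67 and 308.64. Between them lay 16 weaker peaks and 1 strong peak left out for width. Its peak at 3583113 to 3583524 covered 412 bp and is the second narrowest of the 185.

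Another 5 groups had 4 members each. The 4 of them with the highest summed scores differed greatly in length. The group from 7950412 to 7955410 put its 4 peaks into 5.00 kb, with scores of 164.74, 130.06, 148.15 and 207.5 and widths of 606 to 719 bp, and 1 weaker peak between them. The group from 13880389 to 13889472 was 9.08 kb long, with scores of 326.14, 112.26, 237.43 and 107.45 and widths of 629 to 717 bp, again with 1 weaker peak. Both groups are rows of narrow peaks of like width. Their median gaps were only 410 and 1691 bp, so each count of 1 weaker peak comes from little sequence between peaks. The group from 19744585 to 19781821 spread over 37.2 kb with 9 weaker peaks and scores of 302.52, 145.56, 191.32 and 383.12. The group from 2016301 to 2050873 covered 34.6 kb with 5 weaker peaks and 1 strong peak left out for width, and its scores ran from 107.9 to 162.31.

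At the other extreme, the longest stretch of X between strong compact peaks ran for 884 kb, from 20053770 to 20937842. It held 32 peaks, of which the highest scored 99.22, just under the limit. The longest such stretches of the other arms were 1008 kb on 2L, 797 kb on 3L and 654 kb on 3R. Beyond the stretch of X lay its last strong compact peak, at 20937843 to 20939637, which was 1795 bp wide and scored 111.64. That peak was also the one farthest from any other, followed by 14547767 to 14548291 (score 114.69, 615107 bp away), 15705553 to 15706663 (409.84, 334710 bp), 20052934 to 20053769 (141.56, 271112 bp) and 677490 to 678378 (137.96, 259869 bp). Of these 5, 4 scored under the median of 154.63, and the peak with 409.84 is among the 10 highest.

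Strong compact peaks of X had weaker peaks around them, though fewer in number than on the other arms. Within 25 kb of an edge there were 7.07 ± 4.64 weaker peaks (SD over 185 peaks), against 8.17 ± 4.96 on 2L, 9.42 ± 5.20 on 3L and 9.93 ± 5.55 on 3R. The medians were 6 on X (interval 5 to 7), 7 on 2L (7 to 9), 9 on 3L (8 to 10) and 9 on 3R (9 to 10). At least 10 weaker peaks surrounded 22.7% of the peaks of X (16.9 to 29.4%), against 35.5% on 2L, 45.2% on 3L and 45.4% on 3R. The sides differed little on X, with 653 on the low-coordinate side and 655 on the other, summed over the 185 peaks.

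Relative to how many weaker peaks each arm has, X had the highest density in place of the lowest number. At the mean density of its arm a pair of 25 kb flanks would hold 3.66 weaker peaks on X, 5.76 on 2L, 6.42 on 3L and 6.83 on 3R. The flanks of strong compact peaks held 1.93 times the mean density on X (interval 1.83 to 2.04), against 1.42 times on 2L (1.349 to 1.494), 1.47 times on 3L (1.405 to 1.529) and 1.45 times on 3R (1.399 to 1.510). Without the segment next to the centromere, where X has few peaks of either kind, the values were 1.80 on X, 1.39 on 2L and 3L and 1.43 on 3R. Flanks of neighbours overlap and count some weaker peaks more than once. The intervals rest on these repeated counts and are therefore too narrow. Counted once each, 48.9% of the weaker peaks of X lay within 25 kb of a strong compact peak, in flanks and peaks that cover 27.9% of its span. On 2L 41.1% lay in 30.4%, on 3L 43.4% in 32.6% and on 3R 45.4% in 34.6%.

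The excess was greatest close to the peaks. In the first 1000 bp on either side, weaker peaks of X reached 4.10 times the arm mean, or 0.30 per kb, and from 1000 to 2500 bp 2.80 times. They were at 1.98 times from 5000 to 10000 bp and at 1.20 times from 50 to 100 kb. On 2L, 3L and 3R the first class stood at 1.97, 2.69 and 2.32 times the mean and the last at 1.21, 1.11 and 1.20 times. In peaks per kb the first class of X, 0.30, lay between 0.227 on 2L and 0.346 on 3L, with 0.317 on 3R. From 1000 bp to 100 kb the density per kb on X was below that of the 3 arms in each class. Within 1000 bp X thus lay in the range of the autosomal arms, and farther away it lay below all 3.

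**Figure D3:**
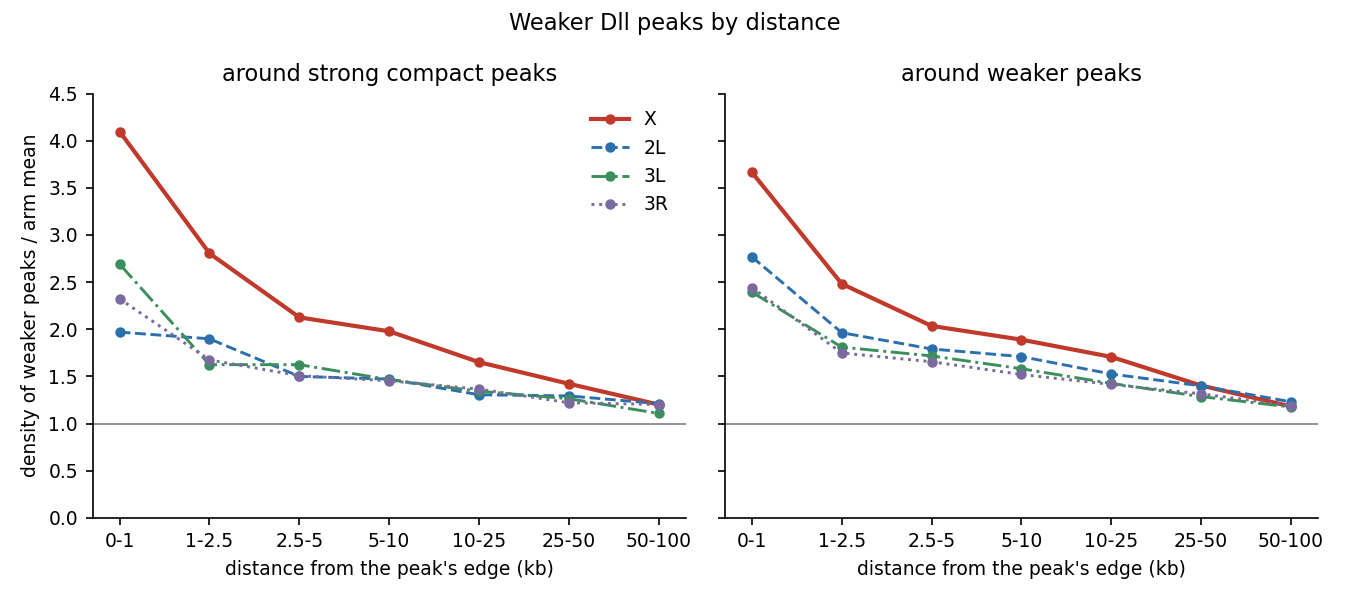
Density of weaker peaks divided by the mean of the arm, in 7 classes of distance (kb) from the edge of strong compact peaks (left) and of weaker peaks (right), on X, 2L, 3L and 3R. The grey line marks the arm mean. On X the ratio is 4.10 beside strong compact peaks and 3.66 beside weaker peaks in the first class, above the other arms in both panels, and all arms come together by 50 to 100 kb.

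The raised density on X was not particular to strong compact peaks. Weaker peaks of X had 6.95 ± 4.84 other weaker peaks within 25 kb (SD over 1641 peaks), close to the 7.07 of strong compact ones, and 1.90 times the arm mean, close to 1.93. On 2L, 3L and 3R weaker peaks had 9.58, 9.93 and 10.4 other weaker peaks, above the 8.17, 9.42 and 9.93 of the strong compact peaks of those arms, and 1.66, 1.55 and 1.52 times the mean. So over the whole 25 kb both kinds of peak on X stood in surroundings of like density. On the other arms the strong compact ones had slightly lower means. The largest such gap was on 2L, at 8.17 against 9.58, and on 3L the medians of both kinds were 9. In the first 1000 bp the ratio to the arm mean was higher around strong compact peaks on X, at 4.10 against 3.66. The same held on 3L, at 2.69 against 2.39. On 2L, at 1.97 against 2.77, and on 3R, at 2.32 against 2.44, it was lower. These values were not tested.

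**Figure D4:**
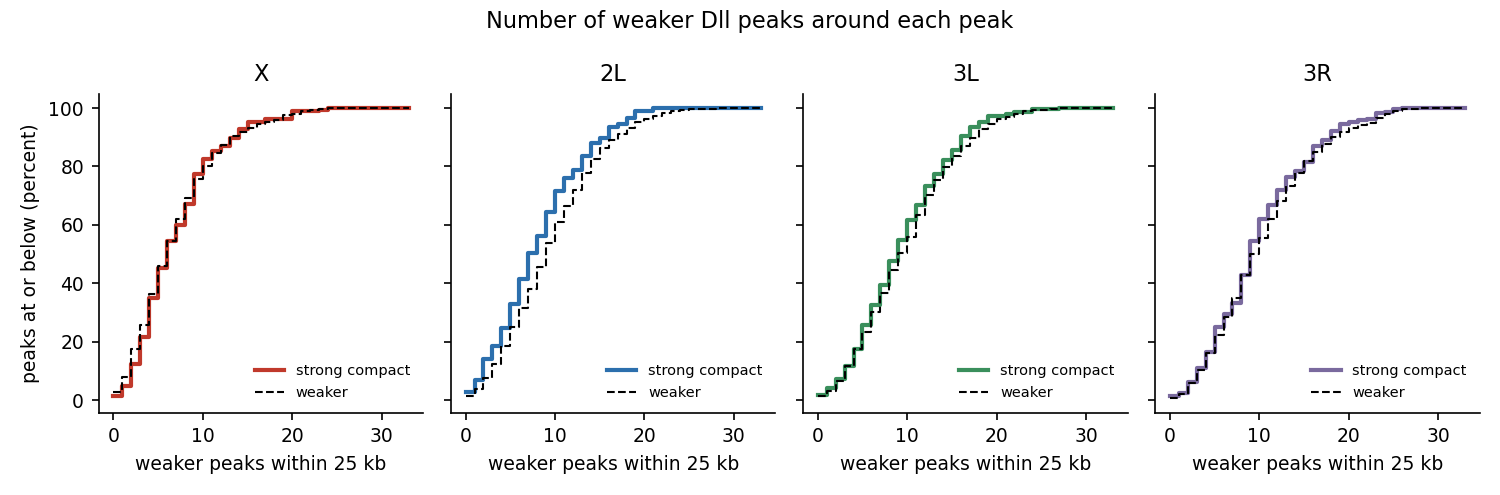
Cumulative percentage of strong compact peaks (solid) and of weaker peaks (dashed) with at most the given number of weaker peaks within 25 kb, on X, 2L, 3L and 3R. On X the curves nearly lie on each other, with medians of 6 for both kinds, and on 2L the solid curve lies left of the dashed one, with medians of 7 and 9.

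The nearest weaker peak lay at a median distance of 968 bp from a strong compact peak of X (interval 685 to 1367 bp), against 1425 bp on 2L, 828.5 bp on 3L and 949 bp on 3R. The shortest distance on X was 52 bp. Of the 185 peaks, 93 (50.3%) had a weaker peak within 1000 bp and 60 (32.4%) within 500 bp. Weaker peaks within 5000 bp of a strong compact peak of X had a median score of 19.8, those within 25 kb 17.6 and those farther away 16.7. On 2L the last pair of values was 16.1 and 14.9, on 3L 17.3 and 15.2 and on 3R 17.3 and 14.4, so the nearer weaker peaks had the higher median on each of the 4 arms.

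Both flanking peaks in the list scored under 100 for 136 of the 185 peaks of X, or 73.5% (66.5 to 79.7%). The share was 77.0% on 2L, 76.1% on 3L and 74.2% on 3R. No higher peak of any width lay within 25 kb of 114 of the peaks of X, or 61.6% (54.2 to 68.7%), against 70.5% on 2L, 62.6% on 3L and 62.4% on 3R. A strong peak left out for width lay within 25 kb of 32 peaks of X, or 17.3% (12.1 to 23.5%), against 11.5% on 2L (7.25 to 17.0%), 16.5% on 3L and 12.2% on 3R. In each of these 3 shares the interval of X overlaps those of the 3 arms, although X had the highest value in the last.

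The most crowded strong compact peak of X, at 17668152 to 17669522 with a score of 165.32, had 24 weaker peaks within 25 kb, the nearest 226 bp away. Within the same distance stood strong peaks left out for width, at 17661790 to 17663851 (score 368.2) and at 17682665 to 17685584 (score 179.93). The peaks at 17696051 to 17697591 (191.32) and at 17697927 to 17699629 (218.47), each with 20 weaker neighbours, begin 26528 bp beyond it. Over X, 7 peaks had 20 or more weaker neighbours, 5 of them exactly 20, and the 3 just named belong to 1 dense stretch. Each of the others has its nearest strong compact peak among the 7. The peak at 4320626 to 4321287 (score 157.82, 23 weaker peaks) lies 14681 bp from that at 4305326 to 4305944 (111.05, 20 weaker peaks). The peak at 1472031 to 1473374 (136.65, 20 weaker peaks) lies 37404 bp from that at 1510779 to 1511711 (124.24, 20 weaker peaks). That distance is beyond the 25 kb limit of a group. The 7 crowded peaks are thus not separate cases.

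On X, 3 of the 185 peaks had 0 weaker peaks within 25 kb, or 1.62% (interval 0.336 to 4.67%), against 5 of 183 on 2L, 4 of 230 on 3L and 4 of 271 on 3R. They scored 275.12 (2088041 to 2088881), 173.62 (13931734 to 13932659) and 125.09 (16861498 to 16862042). Another 6 peaks had 1 weaker peak each, with scores between 108.05 and 409.84, the 2 highest at 15705553 to 15706663 (409.84) and at 18264961 to 18266055 (306.06). Of these 9 peaks with at most 1 weaker neighbour, 5 scored below the median of 154.63 and 4 above it. Across the 185 peaks the Spearman correlation of the score with the number of weaker peaks within 25 kb was -0.037, a description across peaks of 1 list. It was 0.046 on 2L, -0.067 on 3L and 0.096 on 3R.

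Width was limited by the selection and is given as a description. The 185 peaks of X had a median width of 933 bp (interval 853 to 1018 bp) with quartiles of 657 and 1305 bp. On 2L the median was 916 bp, on 3L 944.5 bp and on 3R 1015 bp, all inside the interval of X. Weaker peaks of X had a median of 397 bp, and those of the other arms 391 to 411 bp. The narrowest strong compact peaks of X covered 398 bp, at 13213602 to 13213999 (score 108.66), 412 bp, at 3583113 to 3583524 (154.63), and 428 bp, at 11266782 to 11267209 (139.91). The widest covered 1985 bp (score 223.73), 1976 bp (316.07) and 1971 bp, the last at 10366637 to 10368607 with a score of 117.35.

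The median width on X was greatest in the highest class of score. In the 90 peaks with scores of 100 to 150 the median width was 782 bp (interval 683 to 911 bp), in the 42 with 150 to 200 it was 998 bp, in the 29 with 200 to 300 it was 959 bp, and in the 24 with 300 or more it was 1327 bp (1021 to 1614 bp). On 2L the lowest and the highest class had intervals of 706 to 935 bp and 950 to 1321 bp. Score and width both chose the peaks, so the difference between classes is a description and was not tested. On 3L the same classes had 940, 916.5, 977.5 and 946 bp, with no rise, and on 3R 956.5, 1187.5, 1076 and 1081.5 bp. On 2L the 4 medians were 811.5, 1011.5, 946 and 1128.5 bp. Width and score had a Spearman correlation of 0.287 over the 185 peaks of X, 0.221 on 2L, 0.125 on 3L and 0.173 on 3R, with width cut at 2000 bp in all of them.

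**Figure D5:**
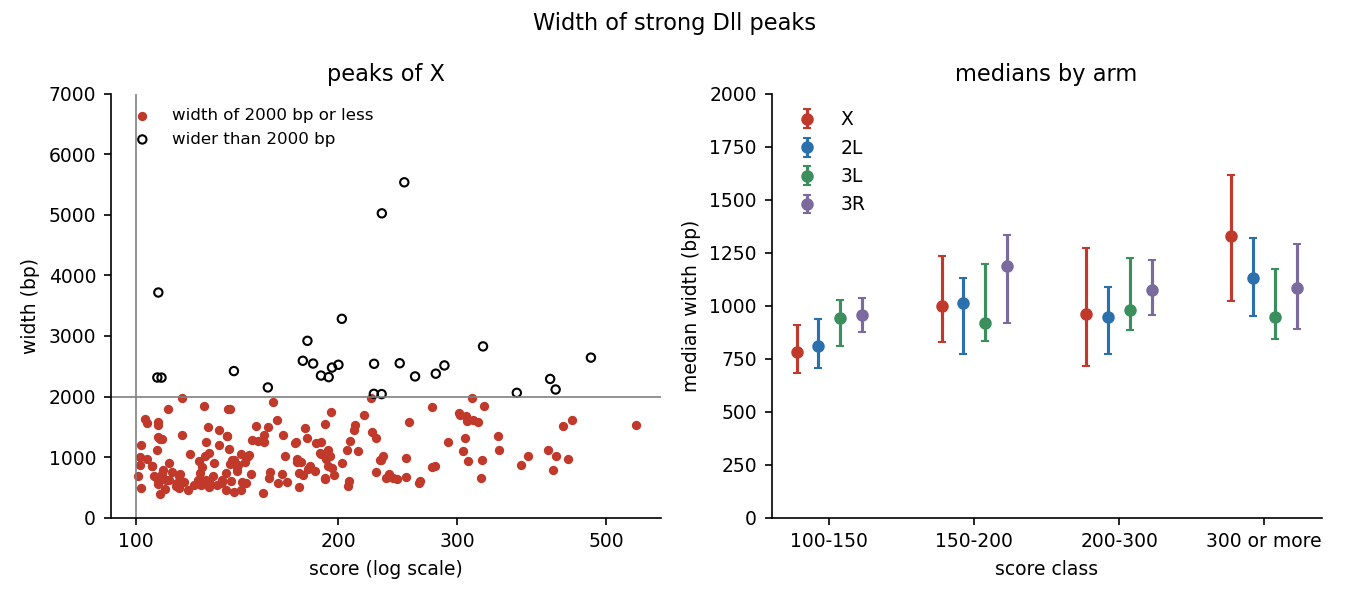
Width against score (log axis) for the 185 strong compact peaks of X and the 27 left out for width (left; the 2 widest exceed 5000 bp), and the median width with its 95% interval in 4 classes of score on X, 2L, 3L and 3R (right). The median of X goes from 782 bp in the lowest class to 1327 bp in the highest, and that of 3L lies between 916.5 and 977.5 bp.

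The limit on width acts on these medians, because it removes different shares of the classes. On X it took 4.26% of the peaks with scores of 100 to 150, 14.3% of those with 150 to 200, 27.5% of those with 200 to 300 and 17.2% of those with 300 or more. On 3L it took 43.2% of the highest class. With peaks of any width, the medians of the lowest and the highest class were 839 and 1535 bp on X, 888 and 1321 bp on 2L, 998 and 1624 bp on 3L and 1027 and 1242 bp on 3R. The flat course on 3L is thus seen with the limit and not without it.

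Median width was highest where weaker peaks were most numerous. The 40 peaks of X with at most 3 weaker peaks within 25 kb had a median width of 838.5 bp and a median score of 168.1. The 103 with 4 to 9 had 956 bp and 148.69, and the 42 with 10 or more had 991.5 bp and 156.2. In the class of 10 or more, median widths were 1071 bp on 2L, 1026.5 bp on 3L and 1131 bp on 3R. That class had the highest median of the 3 classes on each of the 4 arms. On 3L and 3R the class of 4 to 9 had the lowest, 832 and 944 bp, so the rise was not steady there. The Spearman correlation of width with the number of weaker peaks was 0.140 on X, 0.210 on 2L, 0.230 on 3L and 0.204 on 3R, across peaks that share neighbours and 1 list.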

How the data were processed

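Dll ChIP-seq of white prepupae was represented by 1 peak list for 2 ChIP and 2 input libraries. The submitters' processing notes name BWA, MACS2, CASAVA (releases 1.7.0.2 and 1.7.0.3) and the build BDGP 5. Which threshold and filters MACS2 had, whether replicates were pooled, and the versions of the aligner and the caller were not stated in the sources used here. The deposited list declares GFF version 3 and FlyBase release 5, per the file headers. Its deposited score, 1 value per peak, names no scale.

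Peaks with a score of 100 or more and a width (end minus start plus 1) of 2000 bp or less were taken on X, 2L, 3L and 3R. Weaker peaks scored under 100 at any width. Distances run between edges. Densities refer to the span from the first to the last peak of an arm, and the arm mean counts the same weaker peaks. Intervals are 95% Clopper-Pearson for shares and ratios, order-statistic for medians and exact Poisson for densities near peaks. The Poisson intervals treat repeated counts of a weaker peak as separate, which makes them too narrow. Python 3.11.15, numpy 2.4.6, scipy 1.17.1 and matplotlib 3.10.9 were used, and the counting was tested on simulated lists. The selection, measures and classes were chosen with earlier results of these data known. Peaks named by position follow a fixed rule: the 10 highest, the 5 with most and the 5 with fewest weaker neighbours (ties by higher score), the 5 farthest from others, the 5 largest groups, the 3 narrowest and 3 widest, those next to the limits, the 5 highest left out for width and the longest stretch. Other named peaks are neighbours of these, are tied with them or, for the shortest gap, were chosen after the values were seen. Positions relative to genes and motifs were not analysed here, because the only gene table used is of release 6. That table was used only to place the limb genes named as background on X.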

Additional observations from a re-analysis of the deposited data

How the results depend on the processing

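No paired analysis was possible because the list holds no value for single libraries, and for the same reason none could be left out. Of 59 alternative values for 8 results, 44 stayed inside the interval of the reported value and 15 moved outside it. The ratio of X to the 3 arms depended on the denominator. It was 1.52 per 1000 peaks (1.28 to 1.79), against 0.908 per Mb, where the interval includes 1. In the 10 alternatives counted per Mb it was 0.861 to 0.971. By construction, the median gap on X was 28409 bp with a score of 75 or more and 107964 bp with 150 or more, and the share with another strong compact peak within 25 kb was 71.3% and 38.9%. That share was 36.8% within 10 kb and 73.0% within 50 kb. The median number of weaker peaks was 7.5 when counted within 10 kb and scaled to 25 kb. The density of weaker peaks over the arm mean was 2.35 within 10 kb, 1.68 within 50 kb, 1.80 without the segment next to the centromere (an alternative chosen after the data were seen) and 1.62 without peaks that have another strong compact peak within 25 kb. In that last setting the other arms had 1.45 on 2L, 1.22 on 3L and 1.24 on 3R. X had the highest value of the 4 arms in each of these settings. In the last setting, though, the interval of X, 1.47 to 1.78, overlaps that of 2L, 1.35 to 1.55. The nearest weaker peak lay at 1763 bp between centres. The median width was 1027 bp with a score of 150 or more and 852 bp with a width of 1500 bp or less. The planned description of sequences and genes was not run. Depth limits could not be stated, since the list gives no counts of reads.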
